A study of Rattus norvegicus with 9 samples.

Results

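The fragments described here are the tRNA-derived fragments (tRFs) that the deposited table assigns to mitochondrial leucine tRNAs. They were taken as every row whose host tRNA is named mtRNA-Leu1-TAA or mtRNA-Leu2-TAA, which gave 3 distinct sequences of 192 in the table, each listed in 1 row. The name of each tRF joins that of the host and the number of nucleotides (nt), and a letter tells apart tRFs for which both are equal. Small RNA sequencing was done on hand-picked pancreatic islets of male Sprague Dawley rats killed at 22 days of age. In the low-protein (LP) group, 4 rats had mothers that ate a diet with 5.3% protein during pregnancy and lactation, and in the chow diet (CD) group 5 rats had mothers on a diet with 16.8% protein. The study used LP exposure as a rat model of susceptibility to diabetes. Islets hold several endocrine cell types, so fewer cells of a type and less fragment per cell cannot be told apart. Whether littermates were among the rats is not stated, so p-values cover the spread between these samples.

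Mitochondria encode their own set of tRNAs, used to translate those subunits of the respiratory chain that mitochondrial DNA encodes. In mammals a pair of these tRNAs carries leucine. One has the anticodon UAA, with a taurine-modified first base, and reads the leucine codons that begin with UU. The other has the anticodon UAG and reads the leucine codons that begin with CU. A tRNA folds into arms, each a paired stem closed by a loop. The anticodon lies in the middle of a 7-base loop, and the T arm follows it toward the 3′ end, where the tail CCA is added to every mature tRNA. In beta cells, mitochondrial respiration couples glucose metabolism to insulin release.

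The 3 sequences are shown because the name of the host and the anticodon they carry can be set against each other. They are written as DNA, 5′ to 3′, with the anticodon in capitals.
mtRNA-Leu2-TAA 48: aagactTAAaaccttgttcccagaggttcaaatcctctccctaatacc
mtRNA-Leu1-TAA 54: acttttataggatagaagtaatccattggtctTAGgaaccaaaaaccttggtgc
mtRNA-Leu1-TAA 21: aatccattggtctTAGgaacc

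The anticodon of mtRNA-Leu2-TAA 48 matched the name of its host, and that of both mtRNA-Leu1-TAA fragments did not. Anticodon loops were searched as 7 bases with T at loop position 2, flanked by up to 5 stem positions of which at least 3 paired (G with T allowed) and at most 1 did not. The letters at loop positions 3 to 5 were then read as the anticodon. In the 3 leucine fragments the loop to read was chosen by its letters, not by how well its stem paired. In mtRNA-Leu1-TAA 54 the loop cttagga lay between stems that paired at 5 of 5 positions, and it gave TAG. In mtRNA-Leu1-TAA 21 the same loop gave TAG, with 3 of the 3 stem positions inside the fragment paired. The letters TAA occurred once in mtRNA-Leu1-TAA 54, outside this loop, and not at all in mtRNA-Leu1-TAA 21. The loop cttaaaa of mtRNA-Leu2-TAA 48 gave TAA, with 3 of 4 stem positions paired. By their letters, both fragments of mtRNA-Leu1-TAA carry the anticodon of the leucine tRNA that reads codons beginning with CU, although the table names them TAA. Of the 11 mitochondrial tRFs of other amino acids, 7 held the anticodon of their named host in at least 1 such loop and 4 did not. The name thus picked the loop, with 5 loops found in mtRNA-Asn-GTT 55 and 3 in mtRNA-Cys-GCA 51. By the same rule mtRNA-Leu2-TAA 48 held TAA and neither mtRNA-Leu1-TAA fragment did. The 7 were 51 to 55 nt long and the 4 were 21 to 39 nt. No loop was found in mtRNA-Gly-TCC 33 and mtRNA-Ala-TGC 32, while mtRNA-Asn-GTT 39 and mtRNA-Cys-GCA 21 ended in CCA. These 4 may not reach the anticodon, and a fragment without it cannot be set against its name. The search is not specific, since it found 3 loops in mtRNA-Leu2-TAA 48 and 2 in mtRNA-Leu1-TAA 54. The loops not read as the anticodon loop paired at 5 of 5 positions in both fragments. No mitochondrial genome was used here, so the fragments were not placed on coordinates.

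The fragments covered different stretches of their tRNAs. mtRNA-Leu2-TAA 48 began 6 bases before the anticodon, inside the anticodon stem, and ran 39 bases beyond it. It held a complete T arm, shown here with its loop in capitals because it marks the 3′ part of the tRNA.
T arm of mtRNA-Leu2-TAA 48: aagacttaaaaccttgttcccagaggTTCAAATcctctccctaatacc
A further 10 bases followed this arm. The fragment ended in ACC, which can hold the first bases of the CCA tail without its last A. Whether it reached into the tail was not tested. The full letters CCA ended 79 of the 192 tRFs, 77 of the 178 nuclear ones and 2 of the 11 mitochondrial ones of other amino acids. The 7 letters of the T loop were found in 9 of the 192 tRFs (4.69%), read on the strand given.

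mtRNA-Leu1-TAA 54 began 32 bases before the anticodon and ended 19 bases after it. It held bases of the 5′ side of the tRNA and the whole anticodon arm, and it ran on past the 3′ end of that arm. mtRNA-Leu1-TAA 21 lay wholly inside mtRNA-Leu1-TAA 54. The overlap is shown in capitals, since both come from the same stretch.
mtRNA-Leu1-TAA 21 within mtRNA-Leu1-TAA 54: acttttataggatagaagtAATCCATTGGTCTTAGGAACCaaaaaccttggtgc
The short fragment took bases 20 to 40 of the long one, leaving 19 bases before and 14 after. It ended within the 3′ side of the anticodon stem. mtRNA-Leu2-TAA 48 shared at most 9 bases in a row with mtRNA-Leu1-TAA 54 and at most 5 with mtRNA-Leu1-TAA 21. No other tRF of the table shared 15 or more bases with any of the 3. The longest such stretch was 11 bases, between mtRNA-Leu2-TAA 48 and a 35-nt tRF shared by tRNA-Pro-AGG, tRNA-Pro-CGG and tRNA-Pro-TGG.

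**Figure D1:**
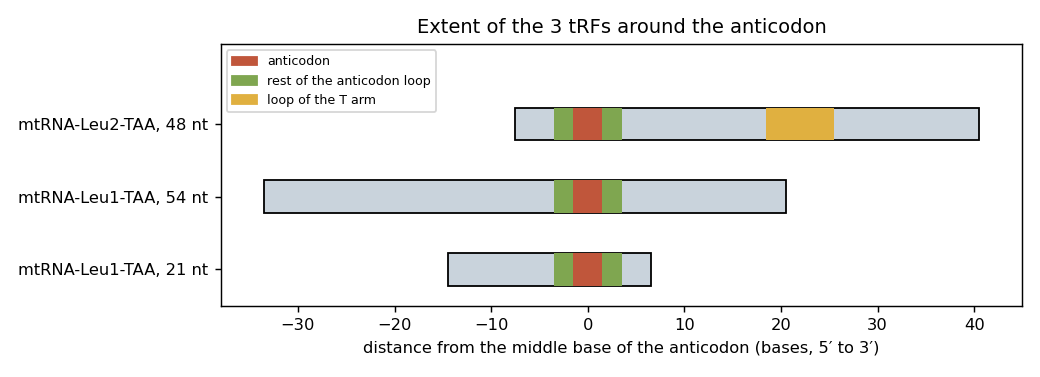
Extent of each fragment in bases from the middle base of its anticodon, 5′ to the left. mtRNA-Leu2-TAA 48 reaches from 6 bases before the anticodon through the T arm, while mtRNA-Leu1-TAA 54 lies mainly before the anticodon and contains mtRNA-Leu1-TAA 21.

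The G and C content was 41.7% in mtRNA-Leu2-TAA 48, 37.0% in mtRNA-Leu1-TAA 54 and 42.9% in mtRNA-Leu1-TAA 21. These values lay within the 18.9% to 47.6% of the other mitochondrial tRFs and below all 178 nuclear tRFs, which spanned 46.7% to 77.4%.

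Read counts in the table were modest and uneven. Over the 9 libraries, mtRNA-Leu2-TAA 48 had 953 counts, mtRNA-Leu1-TAA 54 had 142 and mtRNA-Leu1-TAA 21 had 127. The libraries held 12556 to 40166 counts over the table's tRFs. The depth of whole libraries was not analysed here. Levels are given as normalized read counts, the counts divided by the size factor that the authors used for each library. The table lists only tRFs that the authors had called as changed between these same rats. The tests below therefore size the changes in these rats and are not independent evidence of them. Selection on the same rats can also overstate the sizes, and this was not corrected for.

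mtRNA-Leu2-TAA 48, the fragment with the TAA anticodon, was the most abundant of the 3 and was lower in LP islets. It was present at 307, 178, 86.5, 153 and 105 normalized read counts in CD 1 to CD 5. In LP 1 to LP 4 it was present at 26.0, 9.97, 53.7 and 80.1. CD 1 was the highest of all samples, LP 2 the lowest, and LP 4 came close to CD 3 without passing it, so the groups did not overlap. The mean was 166 ± 87.0 (SD, n = 5) in CD and 42.4 ± 30.9 (SD, n = 4) in LP, 3.91-fold lower. The log2 fold change was -1.95 ± 0.59 (SE, edgeR quasi-likelihood test, adjusted p = 0.00624 over the 192 tRFs). By level it ranked 4 of the 14 mitochondrial tRFs and 44 of all 192.

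mtRNA-Leu1-TAA 54, the long fragment with the TAG anticodon, fell with the least spread among CD rats. CD 1 to CD 5 had 28.8, 29.7, 29.9, 21.6 and 16.5 normalized read counts. LP 1 to LP 4 had 1.37, 8.97, 5.51 and 3.89, the first of these from a single count. Every LP sample lay below every CD sample. The mean went from 25.3 ± 6.0 (SD, n = 5) to 4.94 ± 3.18 (SD, n = 4), 5.13-fold lower. The coefficient of variation in CD was 23.7%, against 52.4% for mtRNA-Leu2-TAA 48. The log2 fold change was -2.31 ± 0.46 (SE, edgeR adjusted p = 0.00210).

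mtRNA-Leu1-TAA 21, the short fragment around the TAG anticodon, came mostly from 2 CD libraries. It stood at 4.80, 2.20, 27.4, 70.1 and 10.3 normalized read counts in CD 1 to CD 5. In LP 1 to LP 4 it stood at 1.37, 0, 5.51 and 2.78, with 14 counts in all 4 libraries together. CD 3 and CD 4 held 98 of its 113 CD counts. CD 1 and CD 2 lay within the LP range, so the groups overlapped. The mean was 23.0 ± 28.1 (SD, n = 5) in CD and 2.41 ± 2.35 (SD, n = 4) in LP, and the median 10.3 and 2.08. The log2 fold change was -3.08 ± 0.94 (SE, edgeR adjusted p = 0.00652), which ranked 3 of 192 from the lowest. It was -2.09 without CD 4 and -3.78 without LP 3. Without both CD 3 and CD 4, a choice made after seeing the data, it was -1.11 ± 0.67 and did not pass (edgeR adjusted p = 0.115). The same 2 libraries had the most mitochondrial counts in the table, 6936 and 8831, against 2226 to 3378 in the other CD libraries. The part of this in the level of mtRNA-Leu1-TAA 21 was not tested.

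**Figure D2:**
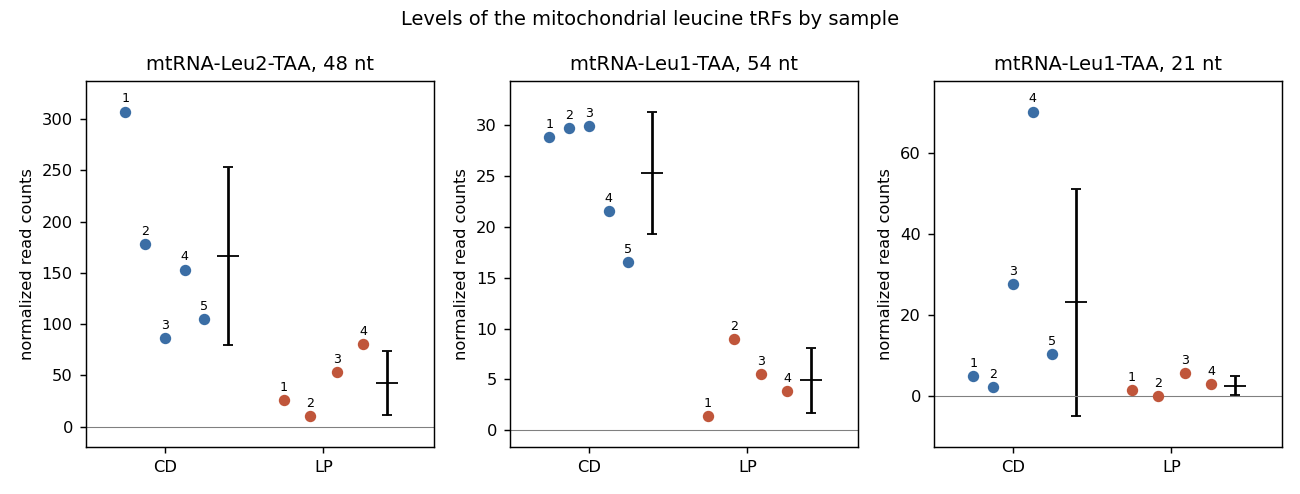
Normalized read counts of each fragment by sample, with replicate numbers beside the points, and the mean with its SD as a black bar (CD, n = 5, LP, n = 4). The groups are apart for mtRNA-Leu2-TAA 48 and mtRNA-Leu1-TAA 54 and overlap for mtRNA-Leu1-TAA 21, where CD 3 and CD 4 carry the CD mean.

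All 3 fragments passed 2-fold and an adjusted p of 0.05 in the lower direction, where 58.3% of the table's tRFs were called lower and 39.6% higher. The levels of 2 of the 3 did not overlap between the groups, while 47.9% of all tRFs were lower and 28.6% higher without overlap. Both shares describe a table made of changed tRFs. The median log2 fold change was -2.31 over the 3 fragments and -1.56 over the 192 tRFs.

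Scaling of the libraries moved the sizes of all 3. With TMM factors taken over the table, the log2 fold changes were -1.27 ± 0.53 for mtRNA-Leu2-TAA 48, -1.69 ± 0.46 for mtRNA-Leu1-TAA 54 and -2.52 ± 0.95 for mtRNA-Leu1-TAA 21 (SE, edgeR adjusted p = 0.0405, 0.00562 and 0.0301), while the median of all tRFs moved to -0.90. Under TMM, 40.1% of the tRFs were called lower. DESeq2 with size factors from the table gave -1.11, -1.59 and -2.59 in the same order (DESeq2 adjusted p = 0.0478, 0.00662 and 0.0476), with 31.8% of the tRFs called lower and a median of -0.72. With TMM the levels of mtRNA-Leu2-TAA 48 overlapped, with LP 4 at 99.8 against 86.7 in CD 3 and 95.4 in CD 5. mtRNA-Leu1-TAA 54 stayed apart, at 15 to 30.0 in CD and 1.94 to 11.7 in LP.

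Ratios between fragments of one library do not depend on scaling, and the authors had not selected on the ratios themselves. Both sides of each ratio were still chosen as changed between these rats, and unchanged mitochondrial tRFs are absent. The ratios are thus not free of that selection. They were compared between LP and CD, 6 comparisons in all. These were the 3 pairs of fragments and each fragment against the summed mitochondrial tRFs of other amino acids. None of the 6 differed beyond the spread between samples. The log2 ratio of mtRNA-Leu2-TAA 48 to mtRNA-Leu1-TAA 54 was 2.58 ± 0.67 (SD, n = 5) in CD and 2.83 ± 1.84 (SD, n = 4) in LP, differing by 0.25 (95% interval -2.49 to 1.94, exact permutation test, two-sided, p = 0.794, adjusted p = 0.889). This difference was 1.15 without LP 2, and it changed sign without LP 4 (-0.23), LP 1 (-0.04) or CD 3 (-0.01). In counts, the excess of mtRNA-Leu2-TAA 48 ran from 1.11 times in LP 2, with 10 against 9 counts, to 20.6 times in LP 4, with 144 against 7. mtRNA-Leu2-TAA 48 had more counts than mtRNA-Leu1-TAA 54 in all 9 libraries.

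The share of the short fragment in the nested pair differed among CD rats. mtRNA-Leu1-TAA 21 made up 6.90% of the 29 counts of the pair in CD 2 (exact binomial 95% confidence interval 0.846% to 22.8%) and 76.5% of the 85 counts in CD 4 (66.0% to 85.0%). Those intervals, which cover counting error only, did not overlap although both rats belong to CD. In LP 2 no read of mtRNA-Leu1-TAA 21 was counted beside 9 of mtRNA-Leu1-TAA 54, which allows a share of up to 33.6%. The log2 ratio of mtRNA-Leu1-TAA 21 to mtRNA-Leu1-TAA 54 was -0.99 ± 2.0 (SD, n = 5) in CD and -1.17 ± 2.06 (SD, n = 4) in LP, differing by -0.18 (95% interval -3.59 to 3.01, exact permutation test, p = 0.889, adjusted p = 0.889). It changed sign without LP 2 (0.84), CD 4 (0.49) or CD 3 (0.04). Against mtRNA-Leu2-TAA 48 the difference was -0.43 (95% interval -3.17 to 2.44, exact permutation test, p = 0.714, adjusted p = 0.889), and it changed sign without CD 4 (0.18) or CD 3 (0.05). The direction of these 3 differences thus rested on single libraries. The interval of each of these 3 pairs is wide, and unequal changes of the fragments within it were not detectable with these samples. The part of read depth in that width was not tested.

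**Figure D3:**
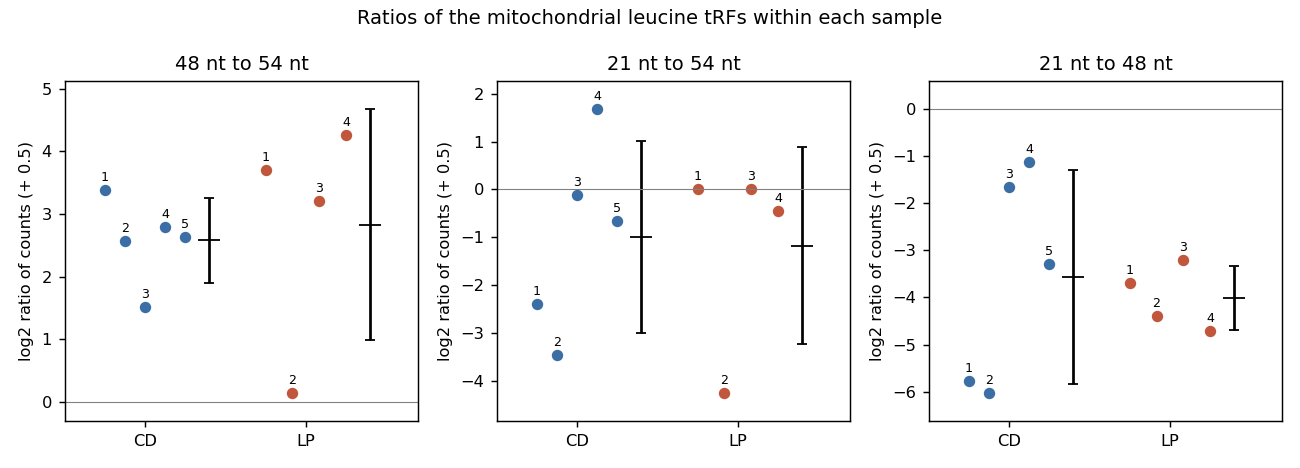
Log2 ratio of read counts, with 0.5 added to each, for each pair of fragments in each library, with the mean and SD as a black bar (CD, n = 5, LP, n = 4). The CD and LP values overlap in all 3 panels, and LP 2 is the lowest LP sample in the panels with the 54-nt fragment.

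The other mitochondrial tRFs of the table set the background for these falls. Of the 11, 9 were called lower and 2 higher, with log2 fold changes from -2.55 to 2.05 and a median of -1.93. The higher ones were mtRNA-Ala-TGC 32 and mtRNA-Asn-GTT 39. In order of log2 fold change from the lowest of the 14 mitochondrial tRFs, mtRNA-Leu1-TAA 21 came 1, mtRNA-Leu1-TAA 54 came 5 and mtRNA-Leu2-TAA 48 came 8. The most abundant of the others were mtRNA-Ile-GAT 52 and mtRNA-Thr-TGT 52, with log2 fold changes of -1.82 ± 0.53 and -2.0 ± 0.57 (SE). They had 16387 and 11810 counts over all libraries, and the next, mtRNA-Arg-TCG 53, had 1382. The sum of the 11 was therefore mostly made of these 2.

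Relative to the sum of these 11, the log2 ratio of mtRNA-Leu2-TAA 48 differed by -0.37 in LP (95% interval -1.92 to 1.13, exact permutation test, p = 0.571, adjusted p = 0.889). The difference was -0.62 for mtRNA-Leu1-TAA 54 (95% interval -1.89 to 0.99, exact permutation test, p = 0.333, adjusted p = 0.889), and -1.18 without LP 2. For mtRNA-Leu1-TAA 21 it was -0.80 (95% interval -3.01 to 1.47, exact permutation test, p = 0.365, adjusted p = 0.889). The 3 leucine fragments together made up 2.27% to 6.31% of the table's mitochondrial counts per library. Nuclear leucine tRNAs, which serve translation in the cytosol, gave 18 tRFs, of which 17 were called lower, with a median log2 fold change of -1.65.

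**Figure D4:**
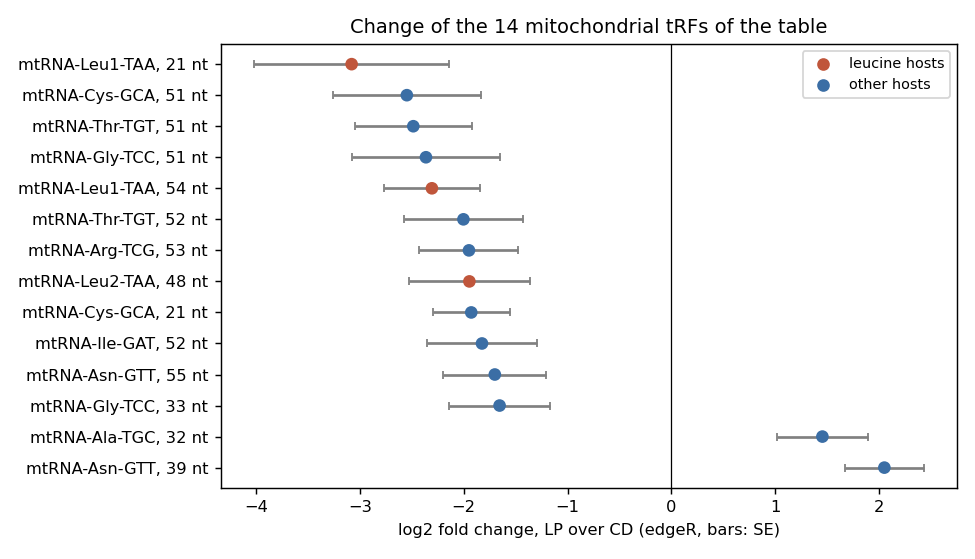
Log2 fold change (LP over CD, edgeR) with its SE for the 14 mitochondrial tRFs of the table, leucine hosts in red and other hosts in blue. The leucine fragments lie at -3.08, -2.31 and -1.95, among the 12 that were lower.

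Among rats of the same diet, the levels of the 3 fragments were weakly correlated. After the group means were subtracted from the log2 levels, Pearson's r over the 9 samples was -0.16 between mtRNA-Leu2-TAA 48 and mtRNA-Leu1-TAA 54. It was 0.23 between mtRNA-Leu2-TAA 48 and mtRNA-Leu1-TAA 21, and -0.27 between the nested fragments. These values describe the libraries, which share depth and scaling within a sample.

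The tRFs with the most similar pattern within groups were all nuclear, as were 178 of the 191 candidates for each fragment. For mtRNA-Leu2-TAA 48 they were tRNA-Ala-AGC 17a (r = 0.88), tRNA-Ser-GCT 51b (r = 0.81) and tRNA-Gly-CCC 39 (r = 0.79), each over 9 samples. The first of these had 41.6, 30.8, 17.5, 16.2 and 10.3 normalized read counts in CD 1 to CD 5, with CD 1 the highest as for mtRNA-Leu2-TAA 48. For mtRNA-Leu1-TAA 54 they were tRNA-Gly-GCC 18 (r = 0.86), tRNA-His-GTG 48 (r = 0.84) and tRNA-His-GTG 52a (r = 0.84). tRNA-Gly-GCC 18 had 4.11 normalized read counts in LP 1 and 21.9 in LP 2, the lowest and highest LP samples for both. For mtRNA-Leu1-TAA 21 they were tRNA-Glu-TTC 30 (r = 0.87), tRNA-Ser-GCT 43 (r = 0.84) and tRNA-Asp-GTC 32a (r = 0.83). tRNA-Glu-TTC 30 was also highest in CD 4, at 638, and in CD 3, at 173, against 8.0 to 42.4 in the other CD samples. tRNA-Gly-CCC 39 and tRNA-Asp-GTC 32a rose in LP, by 1.92 and 1.47 on the log2 scale (edgeR adjusted p = 0.0041 and 0.0057). The other 7 were lower in LP, with log2 fold changes from -2.89 to -1.76.

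mtRNA-Leu1-TAA 21 was also closest to the other mitochondrial tRFs within groups, with a median r of 0.64 over the 11. CD 3 and CD 4, where this fragment was highest, also had the most mitochondrial counts in the table. The median r without these libraries was not computed. The median was 0.28 for mtRNA-Leu1-TAA 54 and 0.20 for mtRNA-Leu2-TAA 48. Over all other tRFs of the table the median r was -0.002 for mtRNA-Leu1-TAA 21, 0.02 for mtRNA-Leu1-TAA 54 and 0.20 for mtRNA-Leu2-TAA 48.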

How the data were processed

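Small RNA libraries were made from islet RNA of 5 CD and 4 LP rats after a treatment that frees blocked fragment ends and removes several base methylations. The authors annotated tRFs against nuclear and mitochondrial tRNA collections, kept those with 2 or more reads in a sample, and tested LP against CD with DESeq2. An aligner, a build of the genome and any handling of molecular tags were not given in the sources used here. Raw read counts per library stand in the deposited table of 255 rows, as the authors left them, unscaled. Its columns headed as normalized counts were deposited on a log2 scale, as DESeq2's variance-stabilising transformation, and a fit of that function left residuals of at most 5.7e-05 and returned the size factors. The authors' own fold changes, adjusted p-values and marks of direction were not used.

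Rows were collapsed to 192 distinct sequences. LP was set against CD by the quasi-likelihood test of edgeR (version 4.0.16 under R 4.3.3), using the authors' size factors, no further filter on low counts and Benjamini-Hochberg adjustment over the table. SEs were computed from the fold change and its F statistic. Ratios used a pseudocount of 0.5 and a two-sided exact permutation test over 126 splits, whose smallest p is 0.0159, adjusted over 6 comparisons. Their intervals hold the shifts that this test did not reject. The edgeR test was run on simulated counts. The permutation test was checked on a made-up, fully separated set of values, where it gave its smallest p. The intervals were not checked in this way. All 3 fragments were named, with the 3 tRFs most like each. Alternatives were DESeq2 (1.42.0), TMM, a minimum count of 10, 4-fold, other pseudocounts and reference sums, a replicate block and leaving out samples. The fragments, lists and tests were chosen with earlier results of these data known.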

Additional observations from a re-analysis of the deposited data

Results flagged for a closer look

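For the levels of the 3 fragments and the 6 ratios, 18 sets of values in all, Dixon's criterion was applied to find a highest or lowest sample far from the rest of its group. It was met in 1 set, where chance gives about 0.9. In LP 2, the log2 ratio of mtRNA-Leu1-TAA 21 to mtRNA-Leu1-TAA 54 was -4.25, against -0.45 to 0 in the other LP samples, a gap of 0.895 of the range. LP 2 had no count of the short fragment and 9 of the long one, so this value depends on the pseudocount.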

How the results depend on the processing

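Of 160 values under the alternatives, 145 kept their direction and their side of the threshold, counts of tRFs staying within 1.5 times. Without both CD 3 and CD 4, an alternative chosen after seeing the data, mtRNA-Leu1-TAA 21 had a log2 fold change of -1.11 and did not pass. The tRFs called lower numbered 112 and those called higher 76. DESeq2 with size factors from the table called 61 lower, and at 4-fold 55 were lower and 32 higher, as a stricter rule admits fewer. TMM called 77 lower.

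Leaving out each sample in turn gave log2 fold changes of -2.45 to -1.60 for mtRNA-Leu2-TAA 48, -2.69 to -2.07 for mtRNA-Leu1-TAA 54 and -3.78 to -2.09 for mtRNA-Leu1-TAA 21 (edgeR adjusted p at most 0.0229). A minimum count of 10 removed mtRNA-Leu1-TAA 21. The differences in log2 ratio that changed sign numbered 11. Leaving out each sample gave -0.23 to 1.15 for mtRNA-Leu2-TAA 48 to mtRNA-Leu1-TAA 54, -0.80 to 0.84 for mtRNA-Leu1-TAA 21 to mtRNA-Leu1-TAA 54 and -1.05 to 0.18 for mtRNA-Leu1-TAA 21 to mtRNA-Leu2-TAA 48. Without both CD 3 and CD 4 they were -0.029, 0.997 and 1.03. Against the other mitochondrial tRFs the ranges were -0.64 to -0.04, -1.18 to -0.37 and -1.25 to -0.34 for the fragments of 48, 54 and 21 nt, and without both CD 3 and CD 4 the values were -1.06, -1.04 and -0.038. None of the 6 ratio comparisons passed an adjusted p of 0.05 under any alternative run. A single ratio with fully separated groups could not pass, given the smallest p of the test and the adjustment. Leaving out samples leaves fewer splits and raises that smallest p. In some runs, such as that without both CD 3 and CD 4, no ratio could have passed, so these runs do not show robustness. Same-numbered CD and LP samples deviated with correlations of -0.399 to 0.1, which gave no sign of pairing. Whether they shared a batch or litter was not tested. With the replicate block, 110 tRFs were lower and 76 higher. The log2 fold changes were then -2.26 ± 0.74 for mtRNA-Leu2-TAA 48, -2.50 ± 0.48 for mtRNA-Leu1-TAA 54 and -3.24 ± 0.63 for mtRNA-Leu1-TAA 21 (SE). Low counts limit mtRNA-Leu1-TAA 54 and mtRNA-Leu1-TAA 21 in LP, with 25 and 14 counts over 4 libraries.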
